A study of Homo sapiens with 30 samples.

Results

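Collagen is modified, folded and crosslinked by a series of enzymes and helper proteins, some inside the cell and some outside it. Of that series 10 genes were followed here in LX2, an immortalised human line that keeps the activated state of hepatic stellate cells. The genes were the lysyl oxidases LOX, LOXL1 and LOXL2, the lysyl hydroxylases PLOD1, PLOD2 and PLOD3, the prolyl 4-hydroxylase alpha subunits P4HA1 and P4HA2, the collagen chaperone SERPINH1 and the procollagen C-proteinase enhancer PCOLCE. Each was found by its Ensembl identifier, so the 10 members came from a table of 61597 genes, and LOX, PLOD2 and P4HA1 were set as hypoxia-inducible members against the other 7.

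Hepatic stellate cells are the main collagen producers of the injured liver. Prolyl 4-hydroxylases let the collagen triple helix form at body temperature, lysyl hydroxylases prepare the lysines that become crosslinks, and SERPINH1 (HSP47) binds the folded helix on its way out of the endoplasmic reticulum. Outside the cell PCOLCE speeds the removal of the C-propeptide by BMP1, and lysyl oxidases then oxidise lysines so that fibrils crosslink and stiffen. LOX, PLOD2 and P4HA1 are known targets of the hypoxia-inducible factors (HIF) in many cell types, and P4HA2 and LOXL2 have been described as hypoxia-responsive in other cells as well.

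The cells were a single line, and 30 libraries of 3′ messenger RNA tags fell into 6 groups of 5, 1 library of each group in each of 5 experiments. DHA+BTC received docosahexaenoic acid (DHA, an omega-3 fatty acid with 22 carbons and 6 double bonds) at 50 µM and betacellulin (BTC, a ligand of ErbB receptors) at 20 ng/ml for 72 h, and DHA+Veh received the fatty acid without BTC. OLA+BTC and OLA+Veh received oleic acid (OLA, an omega-9 fatty acid with 18 carbons and 1 double bond) at the same concentration, with and without BTC. Veh+BTC received BTC without a fatty acid, and Veh+Veh received neither. The medium held 1% serum. Fatty acids were given in 2 cycles of 48 h on albumin at 20 µM, and the labels do not say whether cultures without fatty acid received albumin. The sample labels give 72 h of fatty acid where the protocol gives 96 h. The number after a group name is the experiment.

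Depth ran from 1245182 to 9490142 reads per library (median 3683035). All 3 of the shallowest received DHA, both DHA libraries of experiment 5 and DHA+BTC 4. Of 10 stellate markers 9 were above 0 in all 30 libraries, and desmin (DES) was at 0 in 26 of them. Of 13 markers of other liver cell types 6 passed the filter on low values. The hepatocyte marker ALB was at 0 in 29 libraries and TTR at 0 in 30. The epithelial cadherin CDH1 was present in all 30, at 5.35 to 149 CPM (reads of the gene per 1000000 reads of the library).

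All 10 members were at 1 CPM or more in 30 of 30 libraries and all passed the filter. The 3′ tag method gives about 1 read per transcript whatever its length, so transcript length does not enter a comparison of CPM levels between genes. Other differences in how genes are captured and counted were not examined, so the order of levels and the shares between genes are approximate. SERPINH1 had the highest mean over the 30 libraries, at 689.9 CPM (342 to 1170.0), with a range that overlapped those of the next 4 genes. LOXL2 at 439 CPM (204 to 699), P4HA2 at 436 CPM (248 to 1598), LOXL1 at 357 CPM (116 to 554) and PLOD1 at 311 CPM (149 to 615) came next, and were not separated by their spread. PLOD3 stood at 106 CPM (65.8 to 208) and PLOD2 at 60.7 CPM (11.8 to 160), with overlapping ranges, and PLOD2 also overlapped the 3 genes that followed. PCOLCE at 32.4 CPM (8.83 to 60.7), P4HA1 at 28.5 CPM (5.57 to 84.8) and LOX at 26.6 CPM (8.02 to 59.0) were lowest and were not separated by their spread. In each enzyme family the hypoxia-inducible member was thus lower in mean level than its more abundant relative: PLOD2 below PLOD1, P4HA1 below P4HA2, and LOX below LOXL1 and LOXL2.

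**Figure D1:**
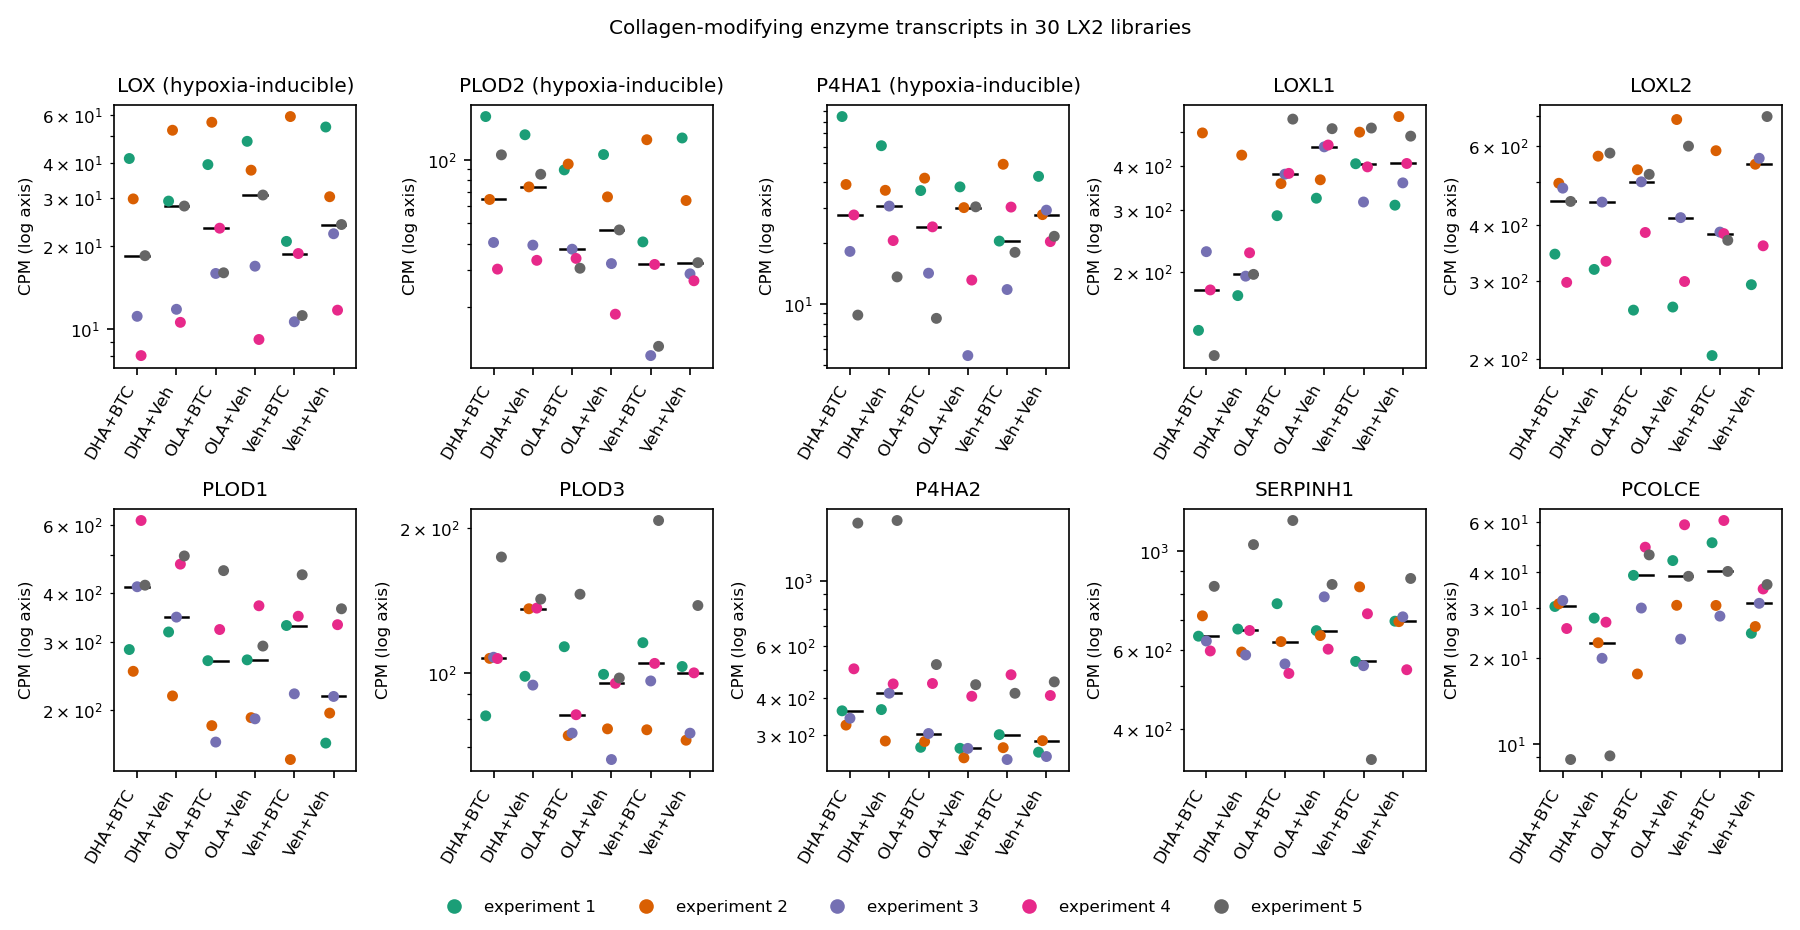
CPM (log axis) of the 10 genes in each of the 30 libraries, by group, with 1 point per library coloured by experiment and a bar at the group median. LOXL1 points are low after DHA except in experiment 2, where DHA+BTC had 498 CPM and DHA+Veh 430.3 CPM, and P4HA2 points of experiment 5 stand at 1566 and 1598 CPM after DHA.

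DHA was compared with no fatty acid, averaged over cultures with and without BTC, with limma on log2(CPM + 1), the experiment as a block and Benjamini-Hochberg adjustment over 15137 genes. LOXL1 and PCOLCE fell, and P4HA2, PLOD1 and PLOD2 rose, so that 5 of the 10 members were called at an adjusted p under 0.05. Of all tested genes 10.7% were called, 2.33% higher and 8.38% lower. The median log2 difference was 0.13 over the members and -0.13 over all tested genes. That all-gene median depended on the scaling: it was -0.05 under median-of-ratios scaling and -0.0018 after quantile normalization, so differences are best read against it. The split of calls moved too, with 352 higher and 1269 lower as given, 530 higher and 754 lower under median-of-ratios scaling, and 520 higher and 661 lower after quantile normalization. In bulk RNA, a change in the number of cells of a state and a change in RNA per cell cannot be told apart.

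The averaged test counts both DHA cultures of an experiment as separate observations once the experiment term is fitted. When they were averaged within each experiment first, 1 of the 10 members was called, LOXL1, and without the experiment block it was again 1, LOXL1. The other 4 calls were thus lost in both settings. Their adjusted limma p-values after averaging first were 0.0541 for PLOD1, 0.0681 for PLOD2, 0.0891 for P4HA2 and 0.125 for PCOLCE. Averaging first also leaves fewer observations in the fit, and why these calls were lost was not tested.

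LOXL1 (ENSG00000129038.16), an oxidase known for its part in elastic fibre and collagen crosslinking, had in experiments 1 to 5 136, 498, 229, 178 and 116 CPM in DHA+BTC and 171, 430.3, 195, 227 and 197 CPM in DHA+Veh. It had 289, 357, 380 (379.9), 382 and 545 CPM in OLA+BTC and 324, 366, 454, 459.8 and 512 CPM in OLA+Veh. It had 407, 500.3, 316, 398 and 514 CPM in Veh+BTC and 310.0, 554, 359, 407 and 487 CPM in Veh+Veh. In experiments 1, 3, 4 and 5 the 8 DHA libraries lay below all libraries of the other 4 groups, and in experiment 2 they lay among them. The mean was 238 ± 125 CPM after DHA and 425 ± 84.9 CPM without fatty acid (SD, n = 10 each). The log2 difference was -0.96 (SE 0.17), a 1.94-fold fall, with an adjusted limma p of 0.000283, and it was below 0 in 5 of 5 experiments. The smallest difference was -0.19, in experiment 2, and the largest fall was that of experiment 5, at -1.72. LOXL1 stayed called in all 47 alternatives, with an adjusted p of at most 0.0282 over those alternatives, which was the value without the block.

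LOXL2 (ENSG00000134013.16), which also acts on basement membrane collagen, averaged 432 ± 104 CPM after DHA and 439 ± 153 CPM without fatty acid (SD, n = 10 each), a log2 difference of 0.02 with an interval of -0.21 to 0.25 (adjusted limma p 0.929). LOXL1 therefore made up a smaller share of the LOX, LOXL1 and LOXL2 reads: 33.1 ± 8.67% after DHA, 46.9 ± 7.55% after OLA and 48.7 ± 7.97% without fatty acid (SD, n = 10 each). The mean share was lower after DHA than without fatty acid in each experiment, at 29.6 against 55.8%, 44.8 against 46.3%, 30.6 against 41.2%, 38.3 against 51.1% and 22.1 against 48.9%.

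PCOLCE (ENSG00000106333.13) had 30.3, 31.0, 31.9, 25.4 and 8.83 CPM in DHA+BTC and 27.6, 22.6, 20.0, 26.7 and 9.10 CPM in DHA+Veh, in experiments 1 to 5. It had 39.0, 17.6, 30.0, 48.9 and 46.0 CPM in OLA+BTC and 43.9, 30.6, 23.3, 58.7 and 38.7 CPM in OLA+Veh. It had 50.7, 30.6, 28.1, 60.7 and 40.3 CPM in Veh+BTC and 24.4, 25.8, 31.1, 34.9 and 36.2 CPM in Veh+Veh. The groups overlapped in experiments 1 to 3, and the lowest values by far were those of the DHA libraries of experiment 5. These rested on few reads, 11 in DHA+BTC 5 (exact Poisson 95% interval 4.41 to 15.8 CPM) and 14 in DHA+Veh 5 (4.97 to 15.3 CPM), intervals that cover counting error only. The log2 difference was -0.67 (SE 0.21) with an adjusted limma p of 0.0346, below 0 in 5 of 5 experiments. The call was lost in 9 of 12 alternative settings and without experiment 4 (adjusted p 0.148) or experiment 5 (0.283, log2 difference -0.34). It was also lost without any of 8 single libraries, which were Veh+Veh 3, DHA+BTC 4, DHA+Veh 4, Veh+BTC 4, DHA+BTC 5, DHA+Veh 5, Veh+BTC 5 and Veh+Veh 5 (0.0521 to 0.0898). Without the 3 shallowest libraries the difference was -0.22 (0.564).

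P4HA2 (ENSG00000072682.20), the alpha subunit that carries most of the prolyl 4-hydroxylase reads here, had 363, 325, 342, 503 and 1566 CPM in DHA+BTC and 366, 287, 416, 447 and 1598 CPM in DHA+Veh, in experiments 1 to 5. It had 273, 286, 304, 449 and 520.2 CPM in OLA+BTC and 271, 252, 271, 406 and 445 CPM in OLA+Veh. It had 301, 272, 248, 481 and 416 CPM in Veh+BTC and 263, 288, 254, 409 and 455 CPM in Veh+Veh. The DHA libraries of experiment 5 were the highest of all 30 and rested on 1950 and 2459 reads, while those of experiments 1 to 4 overlapped the other groups, with both DHA libraries the highest of their 6 in experiments 1 and 3. The log2 difference was 0.61 (SE 0.16), a 1.52-fold rise, with an adjusted limma p of 0.00993 and values above 0 in 5 of 5 experiments. By experiment it was 0.37, 0.12, 0.59, 0.10 and 1.86. Without experiment 5 the difference was 0.30 and the call was lost (adjusted p 0.0991), and it was also lost without experiment 3 (0.0544) and without the 3 shallowest libraries (0.32, 0.082).

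PLOD1 (ENSG00000083444.17), the lysyl hydroxylase that acts mainly on helical lysines, had 286, 252, 415, 615 and 419 CPM in DHA+BTC and 318, 217, 347, 475 and 499 CPM in DHA+Veh. It had 268, 182, 165, 322 and 457 CPM in OLA+BTC and 269, 191, 189.8, 371 and 292 CPM in OLA+Veh. It had 330.1, 149, 220.2, 349 and 446 CPM in Veh+BTC and 164, 196, 217, 332 and 364 CPM in Veh+Veh. The groups overlapped across experiments. Both DHA libraries were the highest of their 6 in experiments 2, 3 and 4, while Veh+BTC 1 lay above both DHA libraries of experiment 1 and Veh+BTC 5 and OLA+BTC 5 above DHA+BTC 5. The mean was 384 ± 124 CPM after DHA and 277 ± 99.7 CPM without fatty acid (SD, n = 10 each). The log2 difference was 0.49 (SE 0.13), a 1.41-fold rise, with an adjusted limma p of 0.0118 and values of 0.37, 0.45, 0.79, 0.67 and 0.18 in experiments 1 to 5. The call was lost without experiment 3 (adjusted p 0.0766) or experiment 4 (0.0909).

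PLOD2 (ENSG00000152952.12), the lysyl hydroxylase of the collagen telopeptides and the one tied to the stable crosslinks of scar tissue, had 160 (159.7), 64.7, 40.5, 30.3 and 105 CPM in DHA+BTC and 131, 74.2, 39.4, 33.4 and 85.1 CPM in DHA+Veh. It had 89.3, 95.2, 37.6, 34.1 and 30.6 CPM in OLA+BTC and 106, 66.6, 32.2, 18.6 and 46.4 CPM in OLA+Veh. It had 40.8, 124, 11.8, 31.9 and 13.1 CPM in Veh+BTC and 126, 64.0, 28.8, 26.7 and 32.5 CPM in Veh+Veh. The groups overlapped widely, and both DHA libraries lay above both libraries without fatty acid in experiments 1, 3 and 5. The log2 difference was 0.79 (SE 0.24), a 1.73-fold rise, with an adjusted limma p of 0.0276 and values above 0 in 4 of 5 experiments. By experiment it was 1.00, -0.36, 1.07, 0.12 and 2.14. The call was lost without experiment 1 (0.0824), experiment 3 (0.130) or experiment 5 (0.284, difference 0.46), without any of Veh+BTC 1, Veh+BTC 3, Veh+BTC 5, DHA+BTC 5, DHA+Veh 5 and Veh+Veh 5 (0.0550 to 0.0742). It was also lost without the 3 shallowest libraries (0.55, 0.271), without a filter on low values (0.0790) and with only the groups compared in the fit (0.0694).

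The PLOD2 difference was larger in cultures with BTC than in those without, on these values. PLOD2 differed by 1.11 on the log2 scale between DHA+BTC and Veh+BTC (adjusted limma p 0.0583) and by 0.47 between DHA+Veh and Veh+Veh (0.554). The experiments gave 1.94, -0.93, 1.70, -0.07 and 2.92 with BTC, and 0.05, 0.21, 0.44, 0.31 and 1.36 without it. The interaction was 0.64 with an interval of -0.33 to 1.60 (adjusted p 0.983), so the effects of DHA with and without BTC were not shown to differ. Within those simple comparisons LOXL1 was the only member called: -1.07 with BTC (adjusted limma p 0.00946, where 3.55% of genes were called) and -0.85 without BTC (0.0603, not called, where 1.54% were). The LOXL1 call with BTC was lost without experiments 1, 4 or 5 or DHA+BTC 5 (0.061 to 0.0971).

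LOX (ENSG00000113083.15), which oxidises lysines of fibrillar collagens and elastin, had 41.6, 29.7, 11.1, 8.02 and 18.5 CPM in DHA+BTC and 29.1, 52.6, 11.8, 10.6 and 27.9 CPM in DHA+Veh. It had 39.5, 56.2, 15.9, 23.2 and 16.0 CPM in OLA+BTC and 48.0, 37.7, 16.9, 9.18 and 30.6 CPM in OLA+Veh. It had 20.8, 59.0, 10.6, 18.8 and 11.2 CPM in Veh+BTC and 54.1, 30.2, 22.2, 11.7 and 24.0 CPM in Veh+Veh. Experiments 1 and 2 were high in most groups and the treatments overlapped throughout. The log2 difference after DHA was -0.13 with an interval of -0.55 to 0.30 (adjusted limma p 0.768).

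P4HA1 (ENSG00000122884.13), the other catalytic alpha subunit, had 84.8, 39.1, 18.2, 27.6 and 8.83 CPM in DHA+BTC and 60.8, 36.6, 30.6, 20.6 and 13.6 CPM in DHA+Veh. It had 36.5, 42.0, 14.2, 24.1 and 8.51 CPM in OLA+BTC and 38.0, 30.0, 5.57, 13.2 and 30.3 CPM in OLA+Veh. It had 20.5, 49.2, 11.8, 30.2 and 18.1 CPM in Veh+BTC and 42.9, 27.7, 29.2, 20.4 and 21.7 CPM in Veh+Veh. The groups overlapped, with DHA libraries the highest in experiment 1 and the DHA and OLA+BTC libraries the lowest in experiment 5. The log2 difference after DHA was 0.15 with an interval of -0.37 to 0.68 (adjusted limma p 0.777), and by experiment it was 1.24, 0.03, 0.33, -0.05 and -0.79. In experiment 5, where PLOD2 and P4HA2 had their highest values relative to no fatty acid, P4HA1 had its lowest.

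The remaining members, PLOD3 and SERPINH1, were not called. PLOD3 (ENSG00000106397.12), which also adds sugars to hydroxylysine, averaged 118 ± 28.0 CPM after DHA and 109 ± 40.2 CPM without fatty acid, and its log2 difference was 0.16 with an interval of -0.10 to 0.41 (adjusted limma p 0.461). SERPINH1 (ENSG00000149257.16) averaged 697 ± 139 CPM after DHA and 653 ± 155 CPM without fatty acid (SD, n = 10 each), a difference of 0.11 with an interval of -0.18 to 0.41 (0.688).

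**Figure D2:**
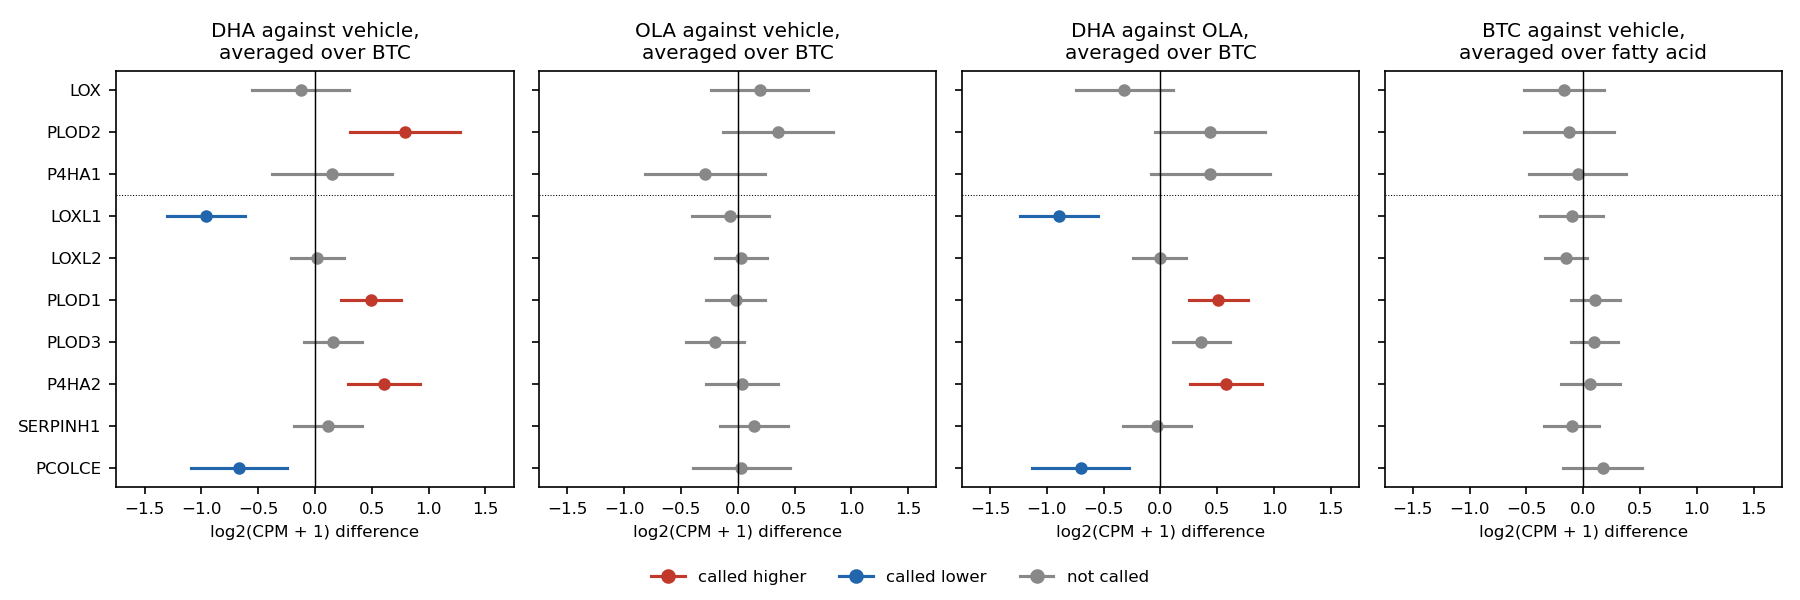
Log2(CPM + 1) differences of the 10 genes with 95% intervals from limma in the 4 averaged comparisons, with called genes in colour and the hypoxia-inducible members above the dotted line. After DHA against no fatty acid LOXL1 lies at -0.96 and PLOD2 at 0.79, while every interval of OLA against no fatty acid and of BTC against its vehicle includes 0.

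Set as a group, the hypoxia-inducible members were not uniformly apart from the others. Of the 3 hypoxia-inducible members 1 was called after DHA (PLOD2, higher). Of the 7 others 4 were called, PLOD1 and P4HA2 higher and LOXL1 and PCOLCE lower. Of all tested genes 10.7% were called, 2.33% higher and 8.38% lower. With libraries averaged within each experiment first, LOXL1 alone was called. The mean log2 difference of LOX, PLOD2 and P4HA1 minus that of the other 7 was 0.31 ± 0.47 (SD over 5 experiments), with values of 0.84, -0.24, 0.23, -0.04 and 0.74. The same quantity was 0.09 ± 0.19 for OLA against no fatty acid, 0.21 ± 0.35 for DHA against OLA and -0.13 ± 0.51 for BTC against vehicle. In each of these the mean was smaller than the spread between experiments, and no test was made of a score over chosen genes.

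A further list held 15 hypoxia-responsive genes, of which 12 were tested. It was chosen with earlier results of these data known, so its share of calls is a description only. After DHA against no fatty acid 7 rose, 0 fell and 5 were not called, where 2.33% of all genes were called higher, and the median log2 difference was 0.94. No test was made of a difference between this list and the members. BNIP3, a mitophagy receptor and HIF target, averaged 88.7 ± 20.3 CPM after DHA and 35.1 ± 10.8 CPM without fatty acid (SD, n = 10 each), and the lowest DHA library at 54.0 CPM was above the highest library without fatty acid at 47.7 CPM. Its log2 difference was 1.35 (adjusted limma p 5.33e-07), at 1.72, 0.86, 1.69, 1.22 and 1.24 in experiments 1 to 5. The glycolytic genes PGK1 (0.99, 1.84e-05) and LDHA (0.95, 0.000596), the glucose transporter SLC2A1 (1.00, 0.000273), the growth factor VEGFA (1.37, 0.00842) and ANKRD37 (1.07, 0.00296) rose as well. These genes are named for their low p-values, and both lists share the same libraries. Unlike those of the members, their calls were not followed over the alternative settings.

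**Figure D3:**
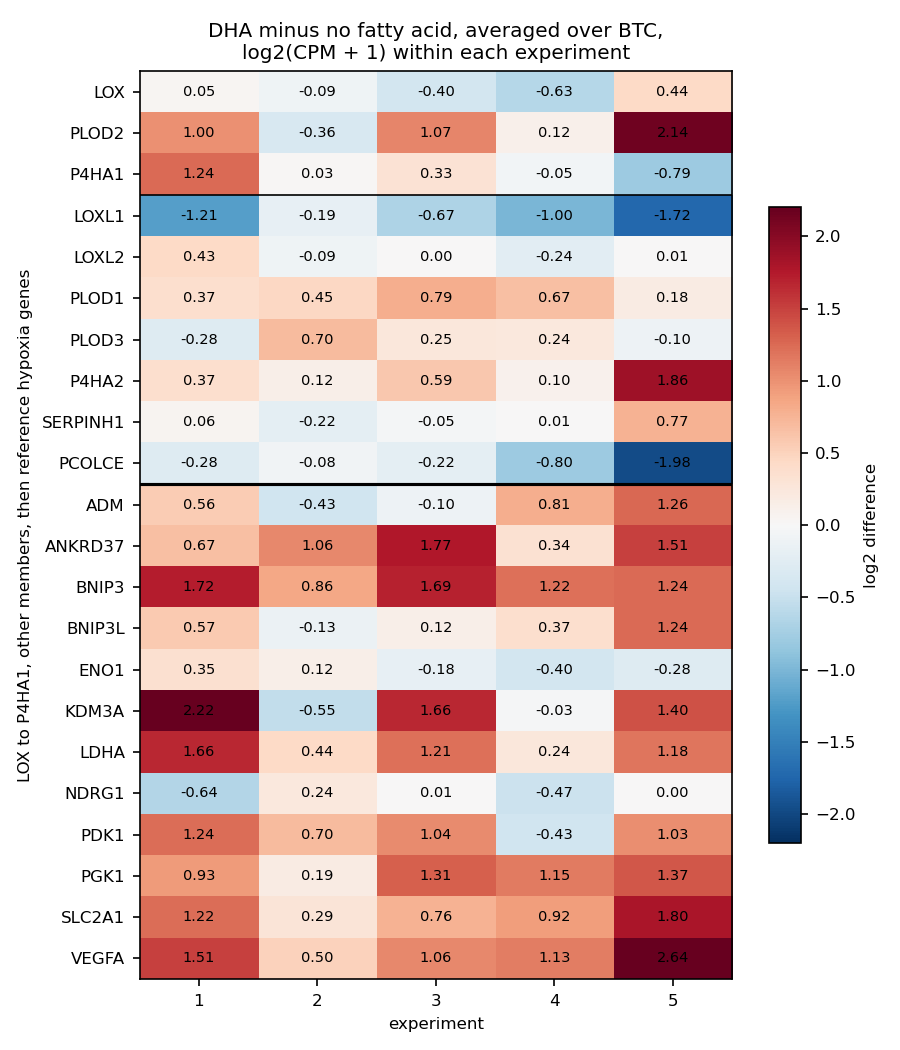
Difference of DHA minus no fatty acid within each of 5 experiments, on the log2(CPM + 1) scale and averaged over BTC, for LOX, PLOD2 and P4HA1 (top), the other 7 members (middle) and 12 tested hypoxia-responsive genes (bottom). BNIP3 lies between 0.86 and 1.72 in all 5 experiments, while PLOD2 ranges from -0.36 in experiment 2 to 2.14 in experiment 5 and P4HA1 from -0.79 to 1.24.

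The start regions of LOX, PLOD2 and P4HA1 are shown because these genes were grouped by their known link to HIF. RefSeq start regions (GRCh38.p14) of 9 of the 10 members were searched, and LOXL2 was not searched. In the 250 bases before a start, ACGTG, a form of the HIF recognition core, was searched on both strands and occurred before 18.5% of 35116 starts. It was present before a start of LOX, PLOD2, P4HA1 and SERPINH1 (1 of its 2 starts), and not in these windows of LOXL1, PLOD1, PLOD3, P4HA2 and PCOLCE. The 18.5% counts starts, whereas the members are counted as genes, and genes with several starts have more windows. The members are therefore not set against that share. A match is a description of letters, not a binding site, and GCGTG, another form of the core, was not searched and is not marked. PLOD2 held 2 matches, 200 and 146 bases before its start, in capitals in its 250 bases at chr3:146161185-146161434 (minus strand, 5′ to 3′):
PLOD2: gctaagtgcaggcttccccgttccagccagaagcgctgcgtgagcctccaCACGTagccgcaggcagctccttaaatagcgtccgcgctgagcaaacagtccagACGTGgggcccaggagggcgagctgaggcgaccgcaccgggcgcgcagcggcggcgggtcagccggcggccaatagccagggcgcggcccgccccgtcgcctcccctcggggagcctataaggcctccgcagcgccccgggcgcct
LOX held 4 matches before the first of its 3 starts (minus strand of chromosome 5), 185, 116, 98 and 42 bases before it, of which the last 2 lie in an exon of another annotation (GENCODE). P4HA1 held 1 match 86 bases before its start (minus strand of chromosome 10), also in such an exon. Their surroundings of 29 bases, at chr5:122078428-122078456, chr5:122078359-122078387, chr5:122078341-122078369, chr5:122078285-122078313 and chr10:73096936-73096964, read:
LOX at 185: gctccctgtgcaACGTGtctggggggagg
LOX at 116: ctgtccgccttgCACGTttccaatcgcat
LOX at 98: tccaatcgcattACGTGaacaaatagctg
LOX at 42: gtaactttgcaaACGTGccagaaagttta
P4HA1 at 86: tgtgatcgagctCACGTagcgagggctgc

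DHA was set against OLA, which shares the concentration, the schedule and the carboxylic acid group and differs in chain length and in the number and place of its double bonds. LOXL1 and PCOLCE fell and PLOD1 and P4HA2 rose relative to OLA, 4 of the 10 members, where 11.4% of all genes were called (2.4% higher and 8.96% lower). The all-gene split was 363 higher and 1356 lower, 515 and 751 under median-of-ratios scaling, and 532 and 648 after quantile normalization. LOXL1 averaged 238 ± 125 CPM after DHA and 407 ± 82.5 CPM after OLA, a log2 difference of -0.89 (SE 0.17, adjusted limma p 0.000674) that was below 0 in 4 of 5 experiments and 0.36 in experiment 2. PLOD1 averaged 384 ± 124 CPM after DHA and 271 ± 94.1 CPM after OLA, a difference of 0.51 (SE 0.13, 0.00947) in the same direction in 5 of 5 experiments. P4HA2 differed by 0.57 (SE 0.16, 0.0152; 5 of 5), with 1.72 in experiment 5. PCOLCE averaged 23.4 ± 8.43 CPM after DHA and 37.7 ± 12.5 CPM after OLA (SD, n = 10 each), a difference of -0.70 (SE 0.21, 0.0264; below 0 in 4 of 5).

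Relative to OLA the hypoxia-inducible members were not called. PLOD2 differed by 0.44 (interval -0.05 to 0.92, adjusted limma p 0.235), P4HA1 by 0.44 (-0.09 to 0.96, 0.278) and LOX by -0.32 (-0.75 to 0.11, 0.341). PLOD3 differed by 0.36 with an adjusted p of 0.0564 and was called with edgeR (0.0244), DESeq2 (0.00828), median-of-ratios scaling (0.0209) and quantile normalization (0.0353). SERPINH1 (-0.03) and LOXL2 (-0.01) were near 0, and their sign turned under median-of-ratios scaling. The PLOD1 call was lost without experiment 3 (0.110) or 4 (0.0818), and the P4HA2 call without experiment 5 (0.113, difference 0.29) or the 3 shallowest libraries (0.132, difference 0.28). The PCOLCE call was lost without experiment 4 (0.168) or 5 (0.272, difference -0.35) and without any of DHA+BTC 4, OLA+Veh 4, DHA+BTC 5, DHA+Veh 5, OLA+BTC 5 and OLA+Veh 5 (0.0507 to 0.0684), and was also missed under median-of-ratios scaling (0.0609), quantile normalization (0.108), edgeR (0.106) and DESeq2 (0.0596). With libraries averaged within experiments first, 2 members were called, LOXL1 and PLOD1. Without the experiment block it was 1, LOXL1.

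OLA was then set against no fatty acid. Of the members 0 of 10 were called and of all genes 0%, with limma and likewise with edgeR and DESeq2, while 0 members and 302 genes had an unadjusted p under 0.05. The member differences lay between -0.29 for P4HA1 (interval -0.81 to 0.24) and 0.35 for PLOD2 (-0.13 to 0.84). PLOD2 after OLA was at 0.43, -0.16, 0.87, -0.21 and 0.83 relative to no fatty acid in experiments 1 to 5, a mean between those of DHA and no fatty acid. LOXL1 differed by -0.06 (-0.40 to 0.28).

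BTC was set against its vehicle, averaged over the pretreatments. Of the members 0 of 10 were called and of all genes 0%, with limma, edgeR and DESeq2 alike, and 0 members and 609 genes had an unadjusted p under 0.05. The differences ran from -0.17 for LOX (interval -0.52 to 0.18) to 0.17 for PCOLCE (-0.18 to 0.52). LOXL1 averaged 349.7 ± 138 CPM with BTC and 364 ± 124 CPM without it (SD, n = 15 each).

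Without a fatty acid the BTC differences of the hypoxia-inducible members went the same way as each other within an experiment and opposite ways between experiments. LOX differed by -1.34, 0.94, -0.99, 0.64 and -1.03 on the log2 scale between Veh+BTC and Veh+Veh in experiments 1 to 5. PLOD2 differed by -1.61, 0.94, -1.22, 0.25 and -1.25. P4HA1 differed by -1.03, 0.81, -1.24, 0.55 and -0.25. LOXL2 and SERPINH1 had the same signs, so 5 of the 10 members did, as did 10.4% of all tested genes. These signs were looked for after the values had been seen, and no test was made of them. They were taken from PLOD2 and had been seen in LOX and P4HA1, so these members matched by choice. The 5 of 10 can therefore not be set against the 10.4%. Each difference is 1 library against 1. The exact Poisson 95% intervals of Veh+BTC and Veh+Veh overlapped for LOX and PLOD2 in experiment 4 and for P4HA1 in experiment 5. In the other pairs of LOX, PLOD2 and P4HA1 they did not overlap. The all-gene medians in these pairs were -0.20, 0.09, 0.03, 0.02 and -0.06. After OLA 1 member had those signs (LOX, and 3.68% of all genes) and after DHA 1 did (P4HA2, and 2.15%). The averages over experiments were -0.36 for LOX, -0.58 for PLOD2 and -0.23 for P4HA1, and 0 of the 10 members were called with limma, where 1 member and 1539 genes had an unadjusted p under 0.05 and DESeq2 called 1 gene, not a member.

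**Figure D4:**
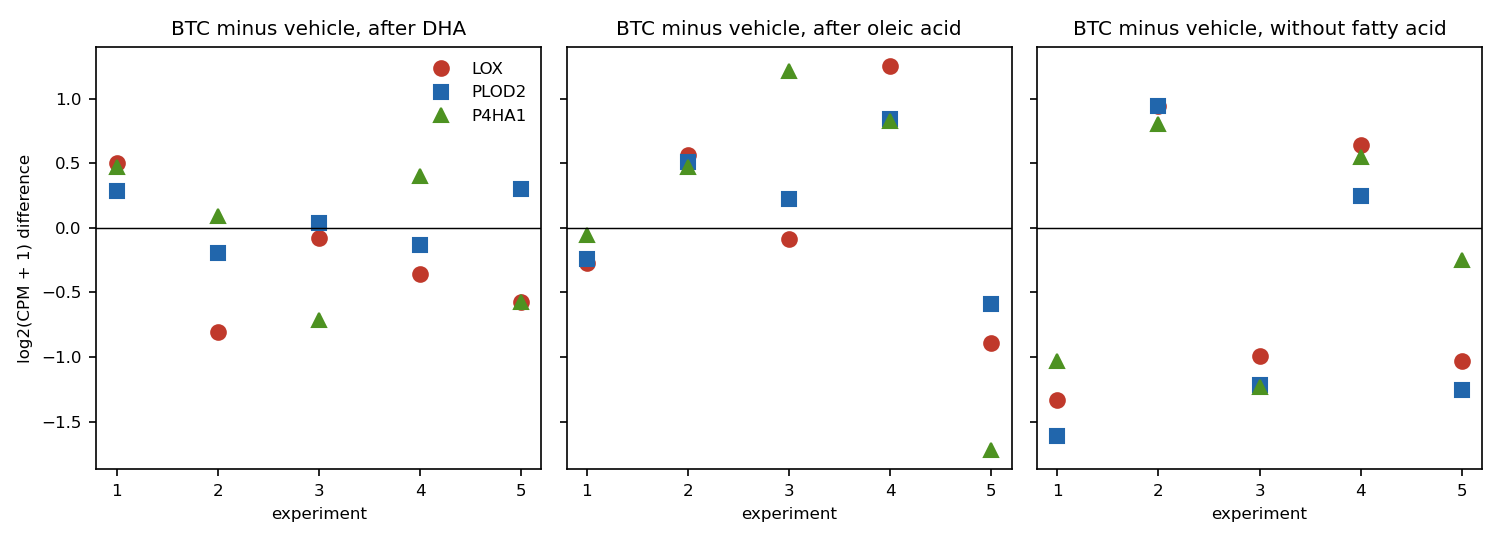
Difference of BTC minus vehicle for LOX, PLOD2 and P4HA1 within each experiment, on the log2(CPM + 1) scale, after DHA, after oleic acid and without fatty acid. Without fatty acid the 3 genes are all below 0 in experiments 1, 3 and 5 and all above 0 in experiments 2 and 4. In experiment 5 P4HA1 (-0.25) lies apart from LOX (-1.03) and PLOD2 (-1.25). Each point is 1 library against 1.

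The hypoxia-inducible members also differed between experiments, over a wider range than their means after DHA, after OLA and without fatty acid. Mean CPM over the 6 libraries of an experiment was 38.8, 44.2, 14.8, 13.6 and 21.4 for LOX and 109, 81.5, 31.7, 29.1 and 52.2 for PLOD2 in experiments 1 to 5. For P4HA1 it was 47.2, 37.5, 18.3, 22.7 and 16.8. All 3 were higher in experiments 1 and 2 than in the others. P4HA2 and PLOD1 had another order, at 306, 285, 306, 449 and 833 CPM and at 273, 198, 259, 411 and 413 CPM. PLOD2 thus made up 27.1% of the PLOD1, PLOD2 and PLOD3 reads after DHA in experiment 1 and 4.60% in experiment 4, while its mean share was 13.8 ± 8.44% after DHA, 14.0 ± 7.78% after OLA and 12.8 ± 12.0% without fatty acid (SD, n = 10 each). P4HA1 made up 7.82 ± 5.91% of the P4HA1 and P4HA2 reads after DHA, 7.03 ± 4.44% after OLA and 7.87 ± 4.10% without fatty acid.

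Beyond the members, 29 further genes of collagen processing and transport were listed, of which 24 were tested. After DHA against no fatty acid 0 rose and 3 of the 24 fell, where 8.38% of all genes were called lower. They were the lysyl oxidase LOXL4 (-1.37, adjusted limma p 0.00131), the tolloid proteinase TLL1 (-1.02, 0.00427) and the collagen gene regulator CREB3L1 (-0.45, 0.0168). Against OLA 0 rose and 4 fell, these 3 and the collagen galactosyltransferase COLGALT1 (-0.53, 0.0257), where 8.96% of all genes were called lower. The calls of this list were not followed over the alternative settings. P4HB, the beta subunit that P4HA1 and P4HA2 share, averaged 664 ± 319 CPM after DHA and 547 ± 139 CPM without fatty acid (0.20, 0.317). BMP1, the proteinase that PCOLCE enhances, averaged 202 ± 129 CPM after DHA and 181 ± 89.8 CPM without fatty acid (0.08, 0.779).

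The substrates were listed separately, 9 genes of which 8 were tested. After DHA against no fatty acid 0 rose and 3 fell, where 8.38% of all genes were called lower. They were the fibrillar collagens COL1A1 (-0.53, adjusted limma p 0.0282), COL1A2 (-1.51, 0.00105) and COL3A1 (-0.71, 0.0148). Against OLA 2 fell, COL1A2 (-1.60, 0.000657) and COL3A1 (-0.63, 0.0305), and 1 rose, COL6A1 (0.49, 0.0173). COL1A1 differed by -0.40 from OLA and was not called (0.0988). Of all genes 8.96% were called lower and 2.4% higher against OLA. COL1A2 averaged 13.6 ± 9.83 CPM after DHA and 40.0 ± 27.9 CPM without fatty acid (SD, n = 10 each). Its values ran from 1.61 to 31.0 CPM after DHA and from 11.3 to 86.0 CPM without fatty acid. The lowest is under the floor of 3 reads in the shallowest library, DHA+BTC 5 (2.41 CPM). The counting error of COL1A2 was not worked out, so the size of its fall is uncertain. The transcripts of P4HA2, PLOD1 and PLOD2 were called higher in the comparison in which those of the 3 collagen chains were called lower. These enzyme calls were all lost when libraries were averaged within each experiment first. Those of P4HA2 and PLOD2 were also lost without experiment 5. The collagen calls, and the stellate marker calls given next, were not followed over the alternative settings. Of 9 tested stellate markers, which include these collagens, 6 fell and 1 (TIMP1) rose after DHA against no fatty acid. Of all genes 8.38% were called lower and 2.33% higher there. The summed level of the stellate markers was 2116 to 3702 CPM after DHA (median 2591) and 2041 to 4346 CPM without fatty acid (median 3561). These ranges overlapped.

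Of the 6 tested markers of other cell types 1 rose after DHA, CDH1 (1.28, adjusted limma p 0.0207). Of all tested genes 2.33% were called higher. CDH1, like TIMP1, is named because of its value, and its call was not followed over the alternative settings. Summed cholangiocyte and epithelial markers were at 20.0 to 149 CPM after DHA and 5.71 to 54.4 CPM without fatty acid. Summed leukocyte markers were at 5.19 to 49.0 CPM after DHA and 1.92 to 29.9 CPM without fatty acid, and endothelial ones at 1.34 to 10.6 CPM after DHA and 0.296 to 7.39 CPM without fatty acid. Hepatocyte markers summed to 0 to 1.34 CPM after DHA and 0 to 1.09 CPM without fatty acid. The part of these markers in the member differences was not tested.

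For the members called, the 3 genes with the most similar pattern were sought among 8274 genes with a mean of at least 10 CPM, by the root mean square difference of log2 values over 30 libraries after centring in each experiment. For LOXL1 they were CXCL12 (0.23), JPT1 (0.23) and STMN1 (0.23), where LOXL1 itself varied by 0.55. For PLOD1 they were HPCAL1 (0.17), TPP1 (0.17) and the collagen chain COL6A1 (0.18), against its own 0.33. For P4HA2 they were EPB41L4A-AS1, DNAJB2 and MAFF (0.21 to 0.22, own 0.41), for PLOD2 BRF2, SEMA3C and PIM3 (0.28 to 0.31, own 0.61), and for PCOLCE AURKB, DTX3L and PYGB (0.26 to 0.27, own 0.54).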

How the data were processed

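The authors deposited 1 table of CPM values (counts scaled so that each library sums to 1000000) for 30 LX2 libraries and 61597 genes. Libraries were made with a QuantSeq 3′ kit, per the labels' protocols, and the submitters' processing notes list STAR 2.5.3a and HTSeq 0.6.0. Which genome build, annotation release and strand setting were used is not given in the sources used here. Overlapping or antisense genes can therefore share reads. The CPM values were whole multiples of 1 read (100% within 0.01 read), which gave each library's depth, and a count of 0 allows 3 reads, 0.316 to 2.41 CPM. Intervals and floors cover counting error only.

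The test was limma 3.58.1 (R 4.3.3, trend) on log2(CPM + 1) for the 15137 genes that reached 1 CPM in 5 or more libraries, two-sided. All 30 libraries entered 1 fit with group and experiment, and p-values were adjusted (Benjamini-Hochberg) over all genes within a comparison. Calls are adjusted p-values under 0.05, and folds are on the log2(CPM + 1) scale. The labels name 5 experiments that each hold every group. Deviations from group means correlated at 0.119 or more in all 75 pairs of 1 experiment (median 0.507). Whether the experiments were separate passages is not stated, and the p-values then reflect only how far these libraries spread, which may be technical. Alternatives were edgeR 4.0.16 and DESeq2 1.42.0 on recovered reads, other scalings, filters and pseudocounts, and leaving out libraries. Named genes were the 10 members, up to 6 genes of lowest p per further list, and the 3 genes most like each called member. Members and lists were chosen with earlier results of these data known. Start-region sequences are from RefSeq (GRCh38.p14).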

Additional observations from a re-analysis of the deposited data

Results flagged for a closer look

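In 8 of 60 gene and group combinations of 5 libraries, 1 library lay far from the others, with a gap to its neighbour above 0.71 of the group's range. For 5 independent, normally distributed values chance passes that limit in about 1 of 20 groups. These CPM values came from 5 experiments of differing level, and the genes share libraries. The 8 of 60 can therefore not be set against that rate. Experiment 5 gave 5 of the 8 combinations, all after DHA and in the 2 shallowest libraries. P4HA2 was at 1566 CPM in DHA+BTC 5 (next 503) and 1598 CPM in DHA+Veh 5 (next 447). PLOD3 was at 174 CPM in DHA+BTC 5 (next 108) and SERPINH1 at 1033 CPM in DHA+Veh 5 (next 669). PCOLCE was at 8.83 CPM in DHA+BTC 5 (next 25.4). Experiment 2 gave the other 3: LOX at 59.0 CPM (next 20.8) and PLOD2 at 124 CPM (next 40.8), both in Veh+BTC 2, and LOXL1 at 430.3 CPM in DHA+Veh 2 (next 227).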

How the results depend on the processing

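Members called after DHA against no fatty acid numbered 5 as reported, 3 without a filter on low values, 3 with only the groups compared, 2 without the 3 shallowest libraries, 1 without the replicate block, 1 with libraries averaged within each experiment first, and 2 to 5 on leaving out single libraries or experiments. Against OLA they numbered 4, 2 without the 3 shallowest libraries, 1 without the replicate block, 2 with libraries averaged first, and 2 to 5 on leaving out libraries or experiments. Without the block 104 genes in all were called for DHA against no fatty acid, in place of 1621, and 68 against OLA, in place of 1719. Averaging first gave 784 and 771, leaving out the 3 shallowest libraries 575 and 537, edgeR 950 and 965, and only the groups compared 1001 for the first. Leaving out libraries or experiments gave 763 to 2071 and 601 to 2102. Where a value near 0 turned, neither value was called. PLOD1 for OLA against no fatty acid was 0.019 after quantile normalization. LOXL2 for DHA against OLA was 0.11 under median-of-ratios scaling, edgeR and DESeq2 (0.11, 0.11) and 0.047 without the 3 shallowest libraries, and SERPINH1 was 0.090, 0.076 and 0.083 under the same scaling and tools. For BTC, PLOD2 was 0.00075 with DESeq2 and P4HA1 0.0019 without the 3 shallowest libraries. On leaving out libraries or experiments, differences of uncalled members that turned ranged, for DHA against no fatty acid, from -0.12 to 0.39 for P4HA1, -0.080 to 0.088 for LOXL2 and -0.050 to 0.20 for SERPINH1. For OLA against no fatty acid they ranged from -0.15 to 0.056 for LOXL1, -0.016 to 0.085 for LOXL2, -0.083 to 0.053 for PLOD1, -0.046 to 0.092 for P4HA2, -0.035 to 0.24 for SERPINH1 and -0.071 to 0.14 for PCOLCE. For DHA against OLA they ranged from -0.10 to 0.036 for LOXL2 and -0.081 to 0.045 for SERPINH1, and for BTC from -0.21 to 0.15 for P4HA1, -0.00012 to 0.16 for PLOD3 and -0.015 to 0.14 for P4HA2. The cause of these shifts was not tested. Depth limits LOX, P4HA1 and PCOLCE most, whose lowest libraries held 18, 11 and 11 reads.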
